A study of Mus musculus with 12 samples.

Results

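Zmiz1 and 8 genes of the pathway that attaches the small protein SUMO to other proteins were followed across 12 RNA-seq libraries of a mouse T cell leukemia line. The genes were taken by symbol from the 23284 rows of the expression tables, and all 9 were found: the ZMIZ genes Zmiz1 and Zmiz2, the PIAS genes Pias1, Pias2, Pias3 and Pias4, the SUMO-activating enzyme subunits Sae1 and Uba2, and the SUMO protease Senp1. The set was put together by function, with earlier results of these data known. All 9 were among the 10152 genes tested, whose level averaged 1 FPKM or more over the libraries (fragments assigned to a gene per kilobase of its transcript, relative to the mapped total), but Zmiz1 passed this filter only through the libraries that carry it on a vector.

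The cells were line 8946, a murine T cell acute lymphoblastic leukemia line grown in culture, and every library came from cells transduced with a pair of retroviruses and sorted as GFP+/NGFR+. The first virus was empty MigR1 or carried the Notch1 mutant L1601P with GFP, and the second was the empty NGFR vector or carried Zmiz1 with NGFR. There were 4 groups of 3 libraries: control (MigR1 with NGFR), Zmiz1-titled, Notch1-titled and combined (L1601P with Zmiz1). The labels disagree on both groups that carry a single insert. Their titles and the column headers call a group Zmiz1 or Notch1, but their cell line field reads L1601P/NGFR for the Zmiz1-titled libraries and MigR1/Zmiz1 for the Notch1-titled ones. Groups are named here by title. Vector expression is not the level of the native gene, and nothing in the labels states that the replicates were separate transductions, so the p-values measure the spread between these libraries, which may be technical.

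SUMO is activated by the Sae1-Uba2 enzyme, then joined to target proteins with the help of ligases, among them the PIAS proteins. Senp1 belongs to the proteases that mature SUMO and take it off again. Zmiz1 and Zmiz2 share with the PIAS proteins the MIZ-type zinc finger typical of this ligase class, and act as coactivators of several transcription factors, with Zmiz1 known as a cofactor of Notch1 in T cell leukemia.

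Before the results, 1 technical feature of the libraries has to be given. Where 2 libraries count whole fragments by the same rules, the ratio of their FPKM takes the same few values in many weakly expressed genes. Over 2479 to 2776 genes with a mean under 0.3 FPKM per pair of libraries, the fullest bin of the log2 ratio (width 0.01) held 13.8% to 19.1% of the genes in the 28 pairs formed by the 8 libraries numbered 2 and 3. It held 2.83% to 9.24% in the 6 pairs formed by the 4 libraries numbered 1, and 0.702% to 1.31% in the 32 mixed pairs. The library numbered 1 of every group therefore stands apart from the other two of its group. The labels give no batch or date, and each group holds 1 such library, so the split is balanced over the comparisons. Beside the calls of the members and of the listed genes described singly below, the adjusted p is given with only the libraries numbered 2 and 3, a fit with fewer libraries, and for some with a term for the libraries numbered 1. The summed FPKM of a library lay between 549098 and 606908, and the sequencing depth is not held in the files. Among the libraries numbered 2 and 3, the depth read from these steps was 0.760 to 1.11 times that of control replicate 2, and Zmiz1-titled replicate 2 was the shallowest. All 12 T cell marker genes were above 1 FPKM. The B cell marker Ms4a1 was listed at 0 in every library, and the B cell, erythroid and NK cell marker sums stayed under 0.56 FPKM, while the fibroblast sum reached 1.18 FPKM. Of 4 myeloid markers only Itgam was above 1 FPKM, at 91.3 to 102 FPKM without and 50.9 to 61.5 FPKM with the Notch1 insert. Csf1r and Lyz2 were at or near 0 throughout. The part of these values in the results below was not tested.

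The members lie on separate chromosomes except for the enzyme subunits Sae1 and Uba2, which are both on chromosome 7. In the GENCODE M21 annotation (GRCm38, the build the submitters name as mm10), Zmiz1 spans chromosome 14 from 25459185 to 25666743 on the plus strand, Uba2 chromosome 7 from 34140688 to 34169599 on the minus strand, and Pias3 chromosome 3 from 96696384 to 96706070 on the plus strand. Zmiz1 and Pias3 were called in planned comparisons. Uba2 was called only in an averaged effect of the Notch1 insert, added after seeing the data. The sequence ahead of a RefSeq transcript start is shown for each of these genes, from the RefSeq promoter table of GRCm38.p6. For Uba2 this start lies inside the GENCODE span, so the window is not ahead of the annotated gene. The 204 of its 250 bases that are printed lie between annotated exons and end where the next exon begins. The letters TGGGAA, the core motif bound by Rbpj, the DNA-binding partner of cleaved Notch1, are in capitals where they occur on either strand.
Zmiz1, chr14:25458935-25459184, plus strand: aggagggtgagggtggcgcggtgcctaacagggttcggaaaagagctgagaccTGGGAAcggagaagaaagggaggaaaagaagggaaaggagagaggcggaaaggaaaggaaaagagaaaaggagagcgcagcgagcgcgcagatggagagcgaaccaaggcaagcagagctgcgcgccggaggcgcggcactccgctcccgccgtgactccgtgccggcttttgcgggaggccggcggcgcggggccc
Uba2, chr7:34168576-34168779, minus strand: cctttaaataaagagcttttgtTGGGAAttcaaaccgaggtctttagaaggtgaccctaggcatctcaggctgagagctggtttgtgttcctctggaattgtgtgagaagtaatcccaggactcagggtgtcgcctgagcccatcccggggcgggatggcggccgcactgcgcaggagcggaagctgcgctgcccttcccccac
Pias3, chr3:96696125-96696374, plus strand: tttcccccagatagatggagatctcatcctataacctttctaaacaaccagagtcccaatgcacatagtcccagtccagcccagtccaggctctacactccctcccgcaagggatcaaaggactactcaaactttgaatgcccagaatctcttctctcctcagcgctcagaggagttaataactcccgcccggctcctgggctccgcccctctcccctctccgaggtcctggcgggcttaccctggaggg
The search found TGGGAA 1 time in the Zmiz1 window and 1 time in the Uba2 window, starting 197 and 182 bases before their ends, and in neither of the windows that the table holds for Pias3, of which the one at the annotated start is shown. Of all 32851 RefSeq windows of 250 bases, 21.6% hold these letters on either strand, the full Uba2 window among them, and 6.02% hold the E-box CACGTG, which none of the 3 windows shown has. The vector copy of Zmiz1 is not driven by the upstream sequence shown. The table held windows for 5 of the 9 members.

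Zmiz1 was almost silent without the vector. Its FPKM was 0.180, 0.170 and 0.176 in control replicates 1, 2 and 3 and 0.220, 0.221 and 0.194 in the Notch1-titled replicates. It was 70.3, 67.7 and 74.4 in the Zmiz1-titled replicates and 47.6, 49.3 and 51.0 in the combined ones. The order of the group means was Zmiz1-titled, combined, Notch1-titled and control, with no overlap between neighbours, and the titles, not the cell line field, match the group in which Zmiz1 is high. Notch1 gave the same reading of the labels, at 1.80 to 2.34 FPKM in the control and Zmiz1-titled libraries and 22.1 to 42.2 FPKM in the Notch1-titled and combined ones.

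Ratios of mean FPKM put Zmiz1 403-fold over control in the Zmiz1-titled libraries and 281-fold in the combined ones. On the scale used for testing, log2(FPKM + 1), which understates the change of a gene this low in control, Zmiz1 was higher by 5.93 (SE 0.05) in Zmiz1-titled than in control libraries. It was higher by 5.37 (SE 0.05) in combined than in Notch1-titled libraries. The insert fixes both differences, and Zmiz1 was tested only because it is high in these groups, so they are given as a description with no test. The small step from control to Notch1-titled, a ratio of mean FPKM of 1.21, was 0.04 on that scale. At these levels the added 1 outweighs the FPKM, so this value cannot show whether the native gene changed. The FPKM ranges of these groups did not touch.

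**Figure D1:**
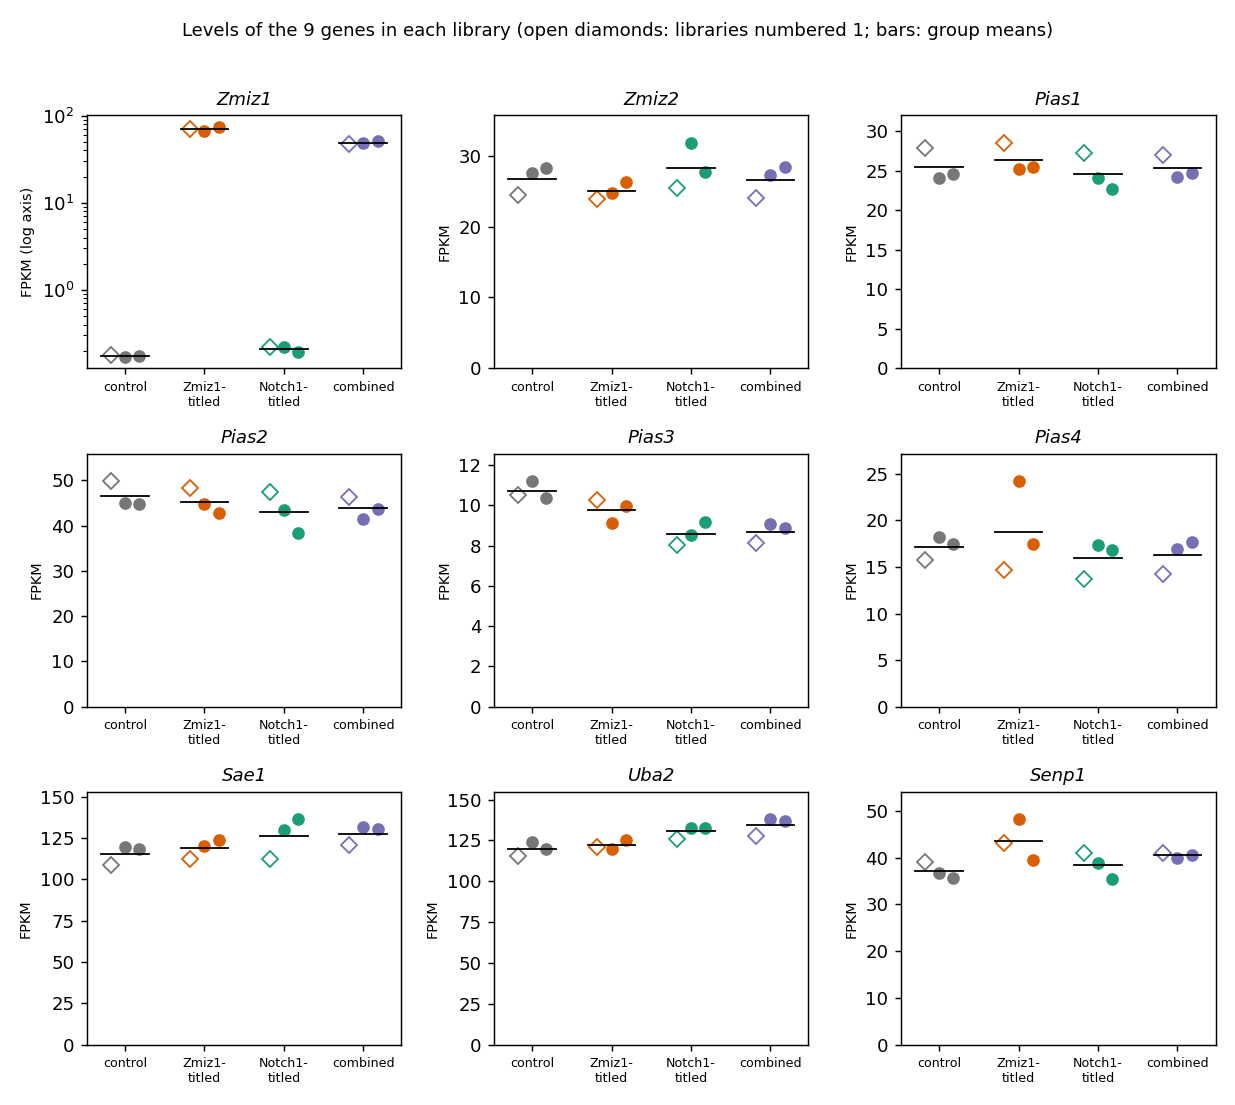
FPKM of each of the 9 genes in each library, by group (control, Zmiz1-titled, Notch1-titled, combined), with open diamonds for the libraries numbered 1, filled circles for those numbered 2 and 3, and a bar at the group mean. Zmiz1 is on a log axis and runs from 0.170 to 74.4 FPKM, while the other genes, on linear axes from 0, have group means that differ by at most 1.25-fold.

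The vector-borne Zmiz1 transcript was lower when the Notch1 insert was present. Zmiz1 fell by 0.51 (SE 0.05) on the log2 scale in combined against Zmiz1-titled libraries (adjusted p = 3.12e-04, limma), a ratio of mean FPKM of 0.696, with all 3 combined libraries below all 3 Zmiz1-titled ones. With only the libraries numbered 2 and 3 the difference was -0.49 (adjusted p = 0.0514, limma), and in the libraries numbered 1 it was -0.55. The interaction, which asks whether the Zmiz1 insert changed Zmiz1 by a different amount with and without the Notch1 insert, was -0.56 (95% interval -0.72 to -0.39, adjusted p = 0.0266, limma). Since Zmiz1 was almost silent without the insert, this mostly restates the difference between combined and Zmiz1-titled libraries. Zmiz1 was the 1 member called in this contrast, with 0.0690% of all genes called, and was tested only through the libraries that carry it. It missed the threshold at pseudocounts of 0.1 and 0.01 (adjusted p = 0.0622 and 0.0741, limma), with robust variances (adjusted p = 0.0604), with a filter at a mean of 5 FPKM (adjusted p = 0.105) and without any of 10 libraries, all but Zmiz1-titled replicate 2 and Notch1-titled replicate 3 (adjusted p = 0.068 to 0.136, limma). With only the libraries numbered 2 and 3 its adjusted p was 0.953.

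Ngfr, the marker on the same vector, gives a second reading of the vector. Ngfr was at 82.8, 83.8 and 88.9 FPKM in control, where the vector holds the marker alone, and at 7.35, 7.23 and 7.71 FPKM in the Zmiz1-titled libraries, where it follows Zmiz1. It was at 61.4, 77.0 and 80.3 FPKM in the Notch1-titled libraries and at 5.65, 5.66 and 5.62 FPKM in the combined ones. Between the groups carrying the Zmiz1 insert Ngfr differed by -0.34 (adjusted p = 0.0575, limma), the direction that Zmiz1 had. It was not called, but was called with a term for the libraries numbered 1 (adjusted p = 0.0231, limma), and was not called with only the libraries numbered 2 and 3 (adjusted p = 0.0851, limma). Zmiz1 FPKM divided by Ngfr FPKM was 9.52 ± 0.152 (SD, n = 3) in Zmiz1-titled and 8.74 ± 0.315 (SD, n = 3) in combined libraries, without overlap (two-sided exact permutation p = 0.1, the smallest that 3 against 3 libraries allow). The Zmiz1 transcript is 7482 bases long in the annotation, of which 3216 (43.0%) are coding. Which of these parts the vector carries is not given in the sources used here. FPKM divides by the length of the annotated transcript, so a vector without the untranslated parts would have its Zmiz1 level understated against other genes. Of the exonic bases of Zmiz1, 2.37% are shared with Zmiz1os1 on the other strand, and the kit keeps no strand.

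Zmiz2, the paralog of Zmiz1, was at 24.5, 27.6 and 28.3 FPKM in control, 152 times the Zmiz1 mean. It was at 23.8, 24.8 and 26.3 FPKM in Zmiz1-titled, 25.4, 31.9 and 27.7 FPKM in Notch1-titled and 24.0, 27.2 and 28.5 FPKM in combined libraries. All 4 groups overlapped. The difference from control in the Zmiz1-titled libraries was -0.10 (95% interval -0.30 to 0.11, adjusted p = 0.734, limma), and in combined against Notch1-titled it was -0.08 (95% interval -0.29 to 0.12, adjusted p = 0.953, limma). The ratio of Zmiz1 to Zmiz2 FPKM was 2.84 ± 0.11 (SD, n = 3) in Zmiz1-titled and 1.86 ± 0.106 (SD, n = 3) in combined libraries.

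In the Zmiz1-titled libraries 1 of the 9 members was called against control, Zmiz1 itself, whose call the insert fixes, where 2.11% of all genes tested were called. In combined against Notch1-titled it was again Zmiz1 alone, with 1.51% of all genes called. The other 8, none of which was called by limma, had log2 fold changes of -0.12 to 0.22 in the first comparison (lowest adjusted p = 0.231, limma, and 1 unadjusted p under 0.05) and of -0.08 to 0.08 in the second (lowest adjusted p = 0.938, limma, and 0 unadjusted p under 0.05). Their 95% intervals lay within -0.30 to 0.45 and within -0.32 to 0.38. The median size of change was 0.07 for these 8 and 0.09 for all genes in the first comparison, and 0.03 and 0.07 in the second. The intervals show how large a change of each gene these libraries still allow.

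**Figure D2:**
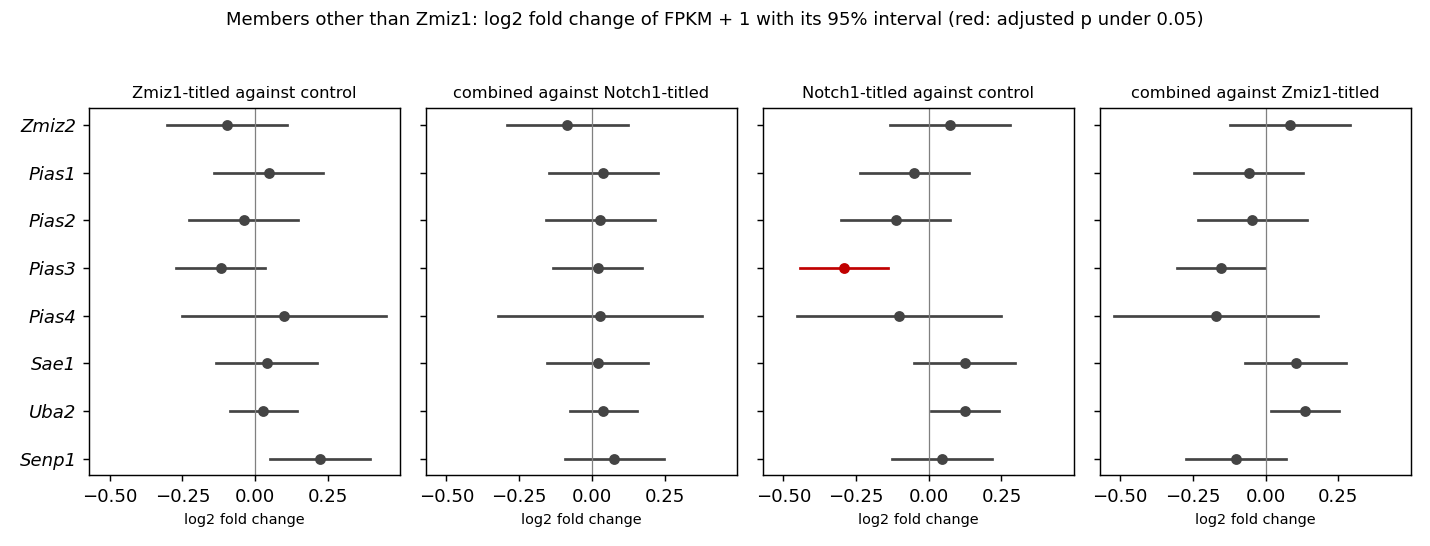
Difference in log2(FPKM + 1) with its 95% interval (limma, all 12 libraries) for the 8 members other than Zmiz1, in 4 comparisons, with red for an adjusted p under 0.05. In both panels of the Zmiz1 insert every value lies between -0.12 and 0.22 and none is red, and Pias3 at -0.29 is the red point of Notch1-titled against control.

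As a share of the summed FPKM of the 6 ZMIZ and PIAS genes, Zmiz1 made up 0.138% ± 0.00308 (SD, n = 3) in control and 0.175% ± 0.00565 (SD, n = 3) in Notch1-titled libraries. Its share was 36.1% ± 1.67 (SD, n = 3) in Zmiz1-titled and 29.0% ± 0.452 (SD, n = 3) in combined libraries, a difference of 7.13 percentage points without overlap (two-sided exact permutation p = 0.1, the smallest possible). The summed FPKM of the other 5 genes was 127 ± 1.59 FPKM in control, 125 ± 3.05 FPKM in Zmiz1-titled, 121 ± 5.35 FPKM in Notch1-titled and 121 ± 2.39 FPKM in combined libraries (SD, n = 3 each). Over all 12 libraries that sum ran from 115 to 129 FPKM. Notch1-titled and combined libraries lay below control in this sum without overlap (exact permutation p = 0.1 for each).

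**Figure D3:**
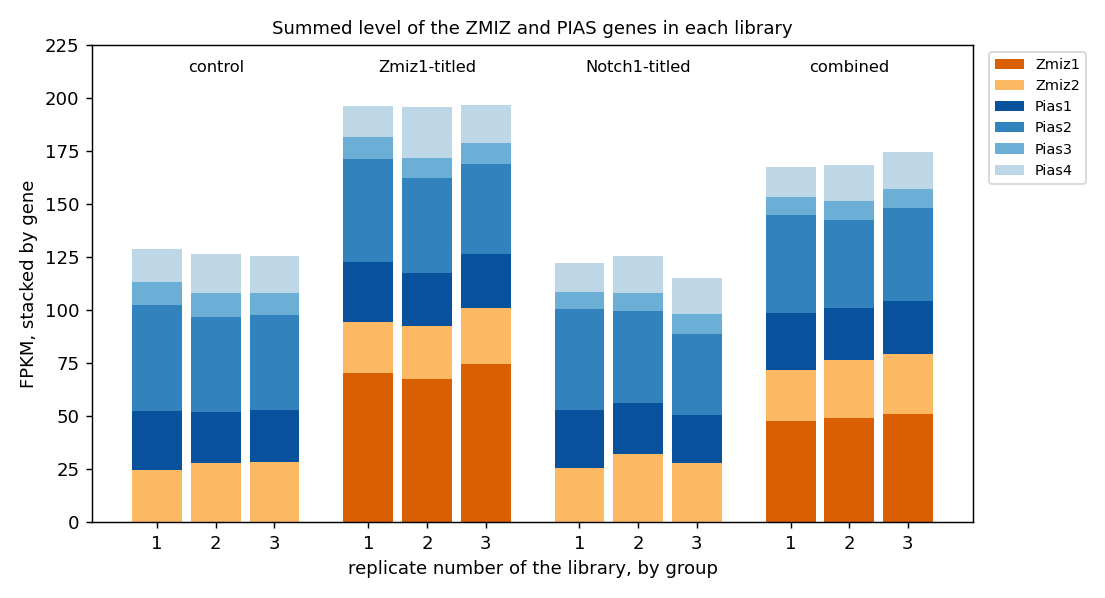
FPKM of Zmiz1, Zmiz2 and Pias1 to Pias4 stacked in each of the 12 libraries, by group and replicate number. Zmiz1 is too thin to see in the control and Notch1-titled bars and takes 34.6% to 37.9% of the Zmiz1-titled and 28.5% to 29.3% of the combined bars.

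Among the SUMO ligases of the PIAS class, Pias2 was the most abundant in control at 46.6 ± 2.90 FPKM (SD, n = 3), followed by Pias1 at 25.5 ± 2.02, Pias4 at 17.2 ± 1.29 and Pias3 at 10.7 ± 0.45. The ranges of these neighbours did not overlap in control. Over all 12 libraries, Pias1 exceeded Pias4 and Pias4 exceeded Pias3 in each. Pias1, Pias2 and Pias4 were called in none of the 7 planned comparisons, and the ranges of their groups overlapped.

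Pias3, a ligase known as an inhibitor of Stat3, was lower in the groups with the Notch1 insert. It was at 10.5, 11.2 and 10.4 FPKM in control and at 10.3, 9.10 and 9.98 FPKM in Zmiz1-titled libraries. It was at 8.01, 8.52 and 9.19 FPKM in Notch1-titled and at 8.13, 9.06 and 8.90 FPKM in combined libraries. All libraries of both groups with the Notch1 insert lay below all 3 controls. So did all Zmiz1-titled libraries, the highest of which was at 10.29 FPKM against 10.37 FPKM in the lowest control. Lying below control was therefore not particular to the groups with the Notch1 insert. Only the lowest Zmiz1-titled library, at 9.10, fell inside the range of the Notch1-titled ones. The share of all genes tested that separate the 3 libraries of a group from the 3 controls was not taken.

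Pias3 fell by 0.29 (SE 0.07) in Notch1-titled against control (adjusted p = 0.0349, limma), the 1 call among the 9 members, with 5.49% of all genes called. It fell by 0.27 (SE 0.07) in combined against control (adjusted p = 0.0411, limma), where 2 members, Pias3 and, fixed by the insert, Zmiz1, were called, with 6.46% of all genes called. These comparisons share the control libraries. In combined against Zmiz1-titled, which does not, the difference was -0.15 (95% interval -0.31 to -0.00, adjusted p = 0.31, limma), and Zmiz1 alone of the 9 was called, with 3.86% of all genes called. In Zmiz1-titled against Notch1-titled the difference of Pias3 was 0.17 (adjusted p = 0.142, limma), and Zmiz1 alone of the 9 was called, again through the insert, with 10.9% of all genes called. Averaged over both backgrounds, a contrast added after seeing the data, the Notch1 insert went with a fall of 0.22 (95% interval -0.33 to -0.12, adjusted p = 0.0129, limma).

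The pairwise calls of Pias3 were close to the threshold. With a term for the libraries numbered 1 they stood (adjusted p = 0.0198 and 0.0238, limma). With only the libraries numbered 2 and 3 the differences were -0.26 and -0.24 (adjusted p = 0.205 and 0.249, limma), and without a filter on low values the adjusted p was 0.0532 and 0.0612. The call against control in Notch1-titled was lost without control replicate 1, 2 or 3, Notch1-titled replicate 1 or 2, and also without combined replicate 2 or 3 (adjusted p = 0.0558 to 0.144, limma). In combined it was lost without any control or combined library, Zmiz1-titled replicate 3 or Notch1-titled replicate 2 (adjusted p = 0.0571 to 0.172, limma). The averaged difference was called in each fit without 1 library (-0.25 to -0.20), but not with only the libraries numbered 2 and 3 (-0.17, adjusted p = 0.148, limma). Pias3 shares 4 exonic bases, 0.102% of its exonic sequence, with Nudt17 on the other strand, and Nudt17 was at 0.0846 to 0.403 FPKM.

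The subunits of the SUMO-activating enzyme were the most abundant members, at 115 to 138 FPKM for Uba2, the catalytic subunit, and 109 to 136 FPKM for Sae1. Their levels stayed close to each other, and the ratio of Sae1 to Uba2 FPKM ran from 0.888 to 1.03 over the 12 libraries. Its group means were 0.964 in control and in Notch1-titled libraries, 0.971 in Zmiz1-titled and 0.95 in combined ones, and combined minus control was -0.0139 (two-sided exact permutation p = 0.5, smallest possible 0.1).

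Uba2 was at 115, 124 and 120 FPKM in control, 121, 120 and 125 FPKM in Zmiz1-titled, 126, 133 and 133 FPKM in Notch1-titled and 128, 138 and 137 FPKM in combined libraries. The 6 libraries with the Notch1 insert, at 126 to 138 FPKM, all lay above the 6 without it, at 115 to 125 FPKM. Of the 9 members 1 was higher without overlap in this split, against 4.82% of all genes tested. Uba2 rose by 0.13 (95% interval 0.05 to 0.21, adjusted p = 0.0431, limma) in the averaged effect of the Notch1 insert. In that average 3 of the 9 members were called (Uba2 higher, Pias3 and the vector gene Zmiz1 lower), with 12.8% of all genes called. Zmiz1 was tested only through its vector. Its value of -0.23 averages 0.04 in Notch1-titled against control with -0.51 in combined against Zmiz1-titled libraries, and is no call of a native gene. The call of Zmiz1 in this average was lost at a pseudocount of 0.01 (-0.13, adjusted p = 0.168, limma) and with only the libraries numbered 2 and 3 (-0.23, adjusted p = 0.0676, limma). For Uba2 the adjusted p was 0.00624 with a term for the libraries numbered 1. With only the libraries numbered 2 and 3 the difference of Uba2 was 0.14 (adjusted p = 0.0749, limma). The call of Uba2 was lost without any of 10 libraries, all but Notch1-titled replicate 1 and combined replicate 1 (adjusted p = 0.0557 to 0.116, limma). Scaling moved it too, with differences of 0.10 under median ratio scaling (adjusted p = 0.0878, limma) and 0.08 under quantile normalization (adjusted p = 0.182, limma).

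No pairwise comparison called Uba2, of which combined against control was the largest at 0.16 (95% interval 0.05 to 0.28, adjusted p = 0.104, limma, and 0.0167 with the term for the libraries numbered 1). Sae1 was at 109, 119 and 118 FPKM in control, 112, 120 and 124 FPKM in Zmiz1-titled, 112, 130 and 136 FPKM in Notch1-titled and 121, 131 and 131 FPKM in combined libraries. Its lowest value in each group was that of the library numbered 1. The averaged effect of the Notch1 insert on Sae1 was 0.11 (95% interval -0.01 to 0.24, adjusted p = 0.221, limma), and with the term for the libraries numbered 1 its adjusted p was 0.0217.

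Senp1, the protease, was at 39.1, 36.7 and 35.7 FPKM in control and 43.1, 48.3 and 39.6 FPKM in Zmiz1-titled libraries. All 3 of the latter lay above the controls, a separation whose share over all genes was not taken. Senp1 was at 41.0, 38.9 and 35.4 FPKM in Notch1-titled and 41.0, 40.0 and 40.6 FPKM in combined libraries. Of the 8 members other than Zmiz1 it had the largest difference in Zmiz1-titled against control, 0.22 (95% interval 0.05 to 0.39), which did not pass the test (adjusted p = 0.231, limma). The averaged effect of the Zmiz1 insert on Senp1 was 0.15 (95% interval 0.03 to 0.27, adjusted p = 0.182, limma). In that average Zmiz1, through the insert, was the 1 member called, with 4.35% of all genes called. The highest Senp1 value came from Zmiz1-titled replicate 2, the shallowest of the libraries whose depth could be read, which also held the highest Pias4 value, 24.3 FPKM against 13.7 to 18.3 FPKM in the other 11.

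Several members also differed by library number. In the libraries numbered 1 against the other 8, adjusted for group, limma called 5 of the 9 members, with 21.5% of all genes called. Pias1 was higher by 0.18 (adjusted p = 0.00288) and Pias2 by 0.16 (adjusted p = 0.018) in the libraries numbered 1. Zmiz2 was lower, at -0.18 (adjusted p = 0.0174, limma), as were Pias4 at -0.30 (adjusted p = 0.0235, limma) and Sae1 at -0.15 (adjusted p = 0.00841, limma).

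For each of these 5 genes the library numbered 1 differed in the same direction from the mean of its partners in all 4 groups. Pias1, Pias2 and Pias4 did so without overlap between the 4 libraries numbered 1 and the other 8, where 9.21% of all genes tested did not overlap. Pias1 was at 27.0 to 28.6 FPKM in the former and 22.7 to 25.4 FPKM in the latter. Zmiz1, Pias3, Uba2 and Senp1 were not called (adjusted p = 0.0977 to 0.799, limma). This split was noticed in these data, and what set the libraries numbered 1 apart was not tested.

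**Figure D4:**
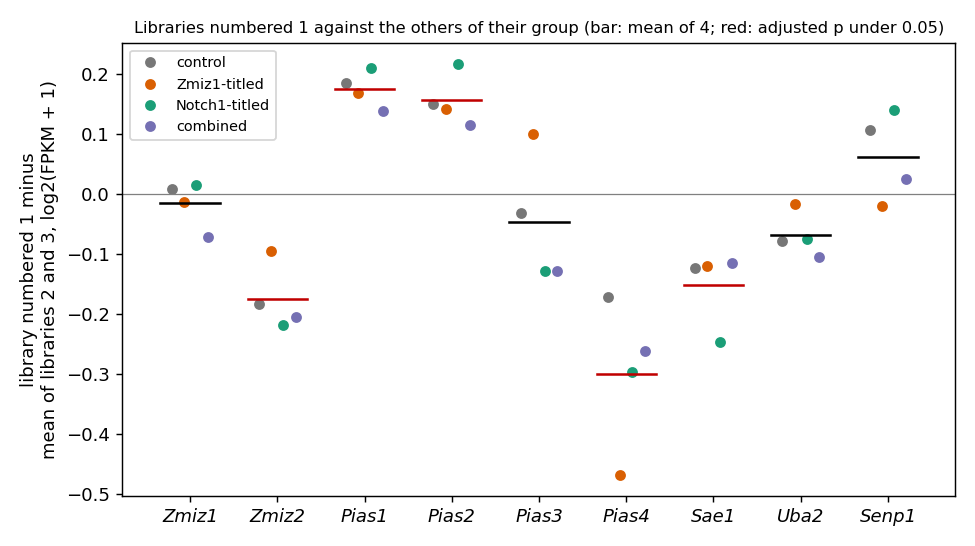
Difference in log2(FPKM + 1) between the library numbered 1 and the mean of the libraries numbered 2 and 3, 1 point per group for each of the 9 genes, with a bar at the mean of the 4 groups and red for an adjusted p under 0.05. Pias1 and Pias2 lie above 0 and Zmiz2, Pias4 and Sae1 below 0 in all 4 groups.

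Of 26 other genes of the SUMO pathway, 25 were tested, since Egr2 was at most 0.107 FPKM. Called were 0 in Zmiz1-titled against control (3 at an unadjusted p under 0.05), 0 in combined against Notch1-titled (1 unadjusted) and 0 in the interaction (0 unadjusted). In Notch1-titled against control 1 rose and 1 fell, with 5.49% of all genes called. In combined against control 2 rose, with 6.46% of all genes called. In combined against Zmiz1-titled 1 rose, with 3.86% of all genes called, and in Zmiz1-titled against Notch1-titled 2 were higher and 1 lower, with 10.9% of all genes called. With 25 genes, 1 to 3 calls are near these shares. The list medians lay between -0.04 and 0.06 in these 7 comparisons, beside -0.03 to 0.02 for all genes tested. The SUMO genes Sumo2, at 495 to 691 FPKM, and Sumo3, at 48.1 to 73.9 FPKM, were called in none of them. With a term for the libraries numbered 1, Sumo3 was called in combined against control (0.32, adjusted p = 0.0457, limma, against 0.0793 without the term).

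Desi1, a desumoylating isopeptidase, rose with the Notch1 insert on both backgrounds. It was at 222, 216 and 223 FPKM in control, 211, 183 and 209 FPKM in Zmiz1-titled, 292, 290 and 311 FPKM in Notch1-titled and 288, 283 and 284 FPKM in combined libraries. The 6 libraries with the insert lay above the 6 without it, a separation that 4.82% of all genes tested also had. The rise was 0.43 (adjusted p = 0.00199, limma) against control in Notch1-titled, 0.37 (adjusted p = 0.00462, limma) in combined, and 0.51 (adjusted p = 8.81e-04, limma) in combined against Zmiz1-titled. The adjusted p of these was 0.0585, 0.1 and 0.0457 (limma) with only the libraries numbered 2 and 3, so both calls against control were lost. Desi1 overlaps Xrcc6, a DNA repair gene on the other strand, over 344 exonic bases (9.46% of the exonic sequence of Desi1). Without strand, reads in that stretch cannot be told apart, and Xrcc6 moved the same way, by 0.38 (adjusted p = 0.0247, limma) in Notch1-titled against control and 0.48 (adjusted p = 0.00933, limma) in combined against Zmiz1-titled.

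Senp7, a protease that trims SUMO chains, fell by 0.35 (adjusted p = 0.016, limma) in Notch1-titled against control, from 23.3, 22.4 and 21.3 FPKM to 18.6, 17.5 and 16.0 FPKM. In combined libraries it was at 19.5, 17.9 and 18.9 FPKM and in Zmiz1-titled at 22.2, 21.5 and 19.7 FPKM. The 6 libraries with the Notch1 insert lay below the 6 without it, a separation that 2.41% of all genes tested also had. The call was lost without control replicate 1 or 2 or Notch1-titled replicate 3 (adjusted p = 0.0506 to 0.0707, limma), with only the groups compared (adjusted p = 0.0567) and with only the libraries numbered 2 and 3 (adjusted p = 0.1). Sp100, a nuclear body protein modified by SUMO, was at 61.2 to 67.2 FPKM without and 50.8 to 59.8 FPKM with the Notch1 insert, an averaged difference of -0.23 (adjusted p = 0.0134, limma), and of -0.21 (adjusted p = 0.0371, limma) with only the libraries numbered 2 and 3. Its 1 planned call, 0.25 higher in Zmiz1-titled than in Notch1-titled libraries (adjusted p = 0.0463, limma), was lost without any of 10 libraries, all but Notch1-titled replicate 2 and combined replicate 1 (adjusted p = 0.0524 to 0.119, limma). It was lost too with a filter at a mean of 5 FPKM (adjusted p = 0.0506), with only the groups compared (adjusted p = 0.134) and with only the libraries numbered 2 and 3 (adjusted p = 0.0639). With a term for the libraries numbered 1, Sp100 was also called lower in Notch1-titled and in combined libraries against control and in combined against Zmiz1-titled (adjusted p = 0.00612, 0.0144 and 0.0189, limma). Senp6, the paralog of Senp7, was at 28.2, 27.3 and 30.3 FPKM in control and 33.6, 32.1 and 34.5 FPKM in combined libraries. It was at 34.7, 32.3 and 33.1 FPKM in Zmiz1-titled and 31.2, 30.2 and 29.3 FPKM in Notch1-titled libraries. All 6 libraries with the Zmiz1 insert were above the 6 without it, a separation shared by 1.46% of all genes tested. The averaged effect of that insert on Senp6 was 0.18, called beside 4.35% of all genes. That call stood in 4 of 12 fits without 1 library, not with only the libraries numbered 2 and 3 (adjusted p = 0.226, limma). In combined against control Senp6 rose by 0.22 (adjusted p = 0.0446, limma). This call was lost without any of 10 libraries, all but Zmiz1-titled replicate 2 and Notch1-titled replicate 3 (adjusted p = 0.0508 to 0.198, limma), under both other scalings (adjusted p = 0.0891 and 0.11), with robust variances (adjusted p = 0.0676) and with only the libraries numbered 2 and 3 (adjusted p = 0.265).

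**Figure D5:**
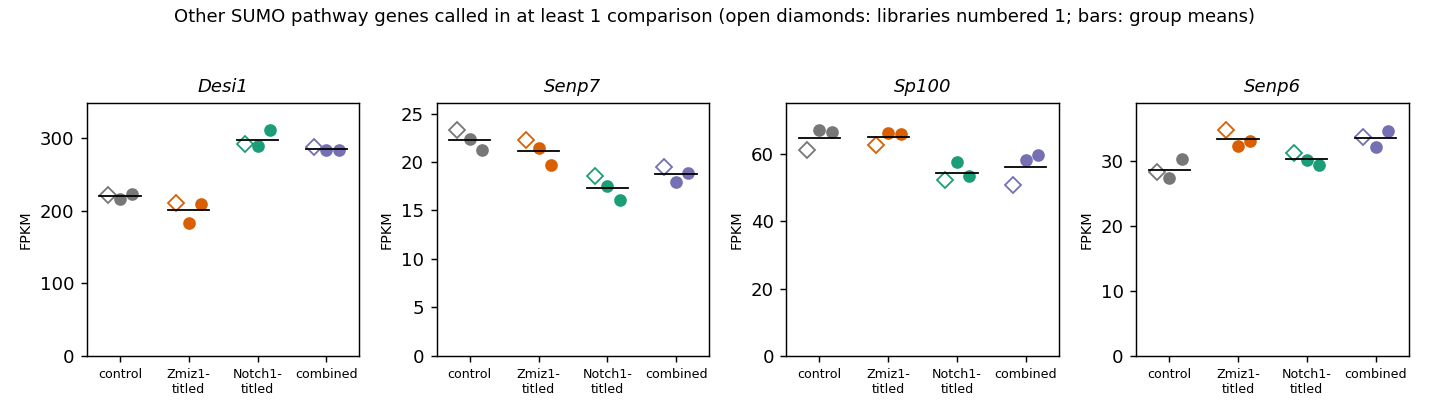
FPKM in each library, by group, of the 4 SUMO pathway genes outside the 9 that were called in at least 1 planned comparison, with open diamonds for the libraries numbered 1 and a bar at the group mean. Desi1 is higher, and Senp7 and Sp100 are lower, in all 6 libraries with the Notch1 insert (Notch1-titled and combined) than in the 6 without it. Of all genes tested, 4.82% were higher and 2.41% lower without overlap in this split. Senp6 is higher in all 6 libraries with the Zmiz1 insert than in the 6 without it, as are 1.46% of all genes tested.

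Of 20 transcription factors and chromatin proteins known to bind ZMIZ or PIAS proteins, 17 were tested, since the others, Stat4 and Msx2 among them, were under the filter. In the 6 pairwise comparisons 5 of the 17 were called at least once, as were 15.0% of all genes tested. These were Notch1, carried on the vector, and Gata3, Smad3, Smad4 and Satb1. Gata3, a T cell transcription factor, was at 78.2, 71.1 and 70.2 FPKM in control, 114, 152 and 102 FPKM in Zmiz1-titled, 65.6, 59.0 and 63.8 FPKM in Notch1-titled and 94.7, 84.5 and 83.4 FPKM in combined libraries. The 6 libraries with the Zmiz1 insert lay above the 6 without it, a separation that 1.46% of all genes tested also had. Of the 17 partners tested, 2 had it, Gata3 and Gfi1. Gfi1 was at 53.4 to 97.3 FPKM with and 45.2 to 52.7 FPKM without the insert, and no pairwise comparison called it. Gata3 rose by 0.72 (adjusted p = 0.015, limma) in Zmiz1-titled against control, a call lost without control replicate 2 or 3 (adjusted p = 0.0736 and 0.0822, limma), with only the groups compared (adjusted p = 0.157) or with only the libraries numbered 2 and 3 (adjusted p = 0.2). It differed by 0.47 in combined against Notch1-titled (adjusted p = 0.125, limma). The highest Gata3 value, 152 FPKM, and the highest Gfi1 value, 97.3 FPKM, came from Zmiz1-titled replicate 2, the shallowest of the libraries whose depth could be read.

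Smad3, a mediator of TGF-beta signals, fell by 0.43 (adjusted p = 0.00404, limma) in Notch1-titled against control, from 78.7 to 79.9 FPKM to 54.8 to 62.1 FPKM. With only the libraries numbered 2 and 3 the difference was -0.44 (adjusted p = 0.103, limma), and the call was lost. Smad4 was higher in Zmiz1-titled than in Notch1-titled libraries by 0.32 (adjusted p = 0.0312, limma), and Satb1, a chromatin organizer of T cells, fell by 0.29 (adjusted p = 0.0312, limma) in combined against control. The call of Smad4 was lost without control replicate 2, Zmiz1-titled replicate 1 or 2, Notch1-titled replicate 2 or 3, or combined replicate 3 (adjusted p = 0.0522 to 0.108, limma). That of Satb1 was lost without any control library and without combined replicate 2 or 3 (adjusted p = 0.0686 to 0.144, limma). Both were lost with only the libraries numbered 2 and 3 (adjusted p = 0.0994 and 0.0824, limma). Rbpj and Maml1, which form the Notch1 transcription complex, were called in none of the 7 comparisons.

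Across the 12 libraries, on log2(FPKM + 1), the genes most like Zmiz1 were Sytl3 (Pearson r = 0.987, Spearman rho = 0.916), Slit1, Samsn1, Osr2 and Il17rb (r = 0.954, rho = 0.741). The 12 points fall into 6 with and 6 without the Zmiz1 insert, so r mainly reads that split, and it is given without a p. Sytl3 had group means of 1.09 FPKM in control and 5.48 FPKM in Zmiz1-titled libraries, and 1.34 FPKM in Notch1-titled and 4.28 FPKM in combined ones, the same order as Zmiz1. The genes least like it were the vector marker Ngfr (r = -0.989, rho = -0.762), Ndrg2, Dapk1, Nnt and Gpr56 (r = -0.953, rho = -0.755). The genes most like Pias3 were Nipsnap1 (r = 0.953, rho = 0.944), Bambi-ps1 and Gtf2f2, and Nipsnap1 had group means of 36.6 FPKM in control and 35.1 FPKM in Zmiz1-titled libraries, against 30.6 FPKM in Notch1-titled and 29.8 FPKM in combined ones.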

How the data were processed

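Library preparation used the TruSeq mRNA v2 kit for all 12 samples, per the labels' protocols, and keeps no strand. The authors deposited 1 FPKM value per gene symbol and library, per the file headers. The submitters' processing notes list Cuffdiff 2.1.1 and Cufflinks, Bowtie2 2.1.0.0 and TopHat2 2.0.9, FastQC 0.10.0 and mm10, with no settings. Any scaling between libraries is not given in the sources used here, and no counts were used. From these values, log2(FPKM + 1) was fitted with limma 3.58.1 (R 4.3.3; intensity trend, 4 group means) for the 10152 genes averaging 1 FPKM or more. Two-sided p-values were adjusted over all of these by the Benjamini-Hochberg method, with a threshold of 0.05, and "called", "rose" and "fell" refer to it. The planned comparisons were 6 pairwise ones and the interaction. Averaged vector effects and the fits for the libraries numbered 1 were added after seeing the data. Members and lists were chosen with earlier results of these data known.

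All 9 members are named, with up to 4 called genes per list and comparison, and the 5 genes most and least like Zmiz1 and 3 most like a member called in a pairwise comparison. Nudt17 and Xrcc6 were added because they overlap named genes. Alternatives were 2 other pseudocounts, other filters, 2 scalings, a replicate block, fewer groups, robust variances and each library left out, where the lone pair of a group took its spread from the shared model. The fit was tested on simulated data. Sequences came from RefSeq (GRCm38.p6). Python 3.11.15 with matplotlib 3.10.9 drew the plots.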

Additional observations from a re-analysis of the deposited data

Results flagged for a closer look

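The difference in how much the Zmiz1 insert raised Zmiz1 with and without the Notch1 insert was -0.56 on the log2(FPKM + 1) scale (95% interval -0.72 to -0.39, adjusted p = 0.0266, limma), so Zmiz1 was higher over its comparison group by less where both inserts were present. It drew attention as a difference between the effects of 1 insert on 2 backgrounds. Zmiz1 was almost silent without the insert and differed by 0.04 in Notch1-titled against control. The contrast therefore mostly restates the difference of -0.51 in combined against Zmiz1-titled libraries and is no separate result. Zmiz1 was tested only because of the libraries that carry it on a vector. All 3 combined libraries, at 47.6 to 51.0 FPKM, lay below all 3 Zmiz1-titled ones, at 67.7 to 74.4 FPKM. Of all genes tested, 0.0690% were called in this contrast. The call was lost at pseudocounts of 0.1 and 0.01 (adjusted p = 0.0622 and 0.0741, limma), with robust variances (0.0604), with a filter at a mean of 5 FPKM (0.105), without any of 10 libraries (0.068 to 0.136) and with only the libraries numbered 2 and 3 (0.953).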

How the results depend on the processing

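The counts of members called moved as follows. In Notch1-titled against control the 1 call (Pias3) became 0 without a filter on low values, when the fit held the compared groups alone and with only the libraries numbered 2 and 3, and ranged from 0 to 1 with each library left out. In combined against control the 2 calls became 1 without a filter, with a filter at a mean of 5 FPKM, with robust variances and with only the libraries numbered 2 and 3, and ranged from 1 to 2 with each library left out. In the interaction the 1 call became 0 at pseudocounts of 0.1 and 0.01, with a filter at a mean of 5 FPKM, with robust variances and with only the libraries numbered 2 and 3, and ranged from 0 to 1 with each library left out. With only the libraries numbered 2 and 3 there were also 0 calls in combined against Zmiz1-titled and 0 in the averaged Notch1 effect. The 3 calls of that effect became 2 with a filter at a mean of 5 FPKM, under both other scalings, with robust variances (all through Uba2) and at a pseudocount of 0.01 (through Zmiz1), and ranged from 2 to 3 with each library left out. No direction reversed, and the cause was not tested, except that fewer libraries carry less information.

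The 25 SUMO pathway genes gave 0 calls in Zmiz1-titled against control, 1 with a term for the libraries numbered 1 and 0 to 1 with each library left out. In Notch1-titled against control 2 calls became 4 with that term, 1 with only the groups compared, 0 with only the libraries numbered 2 and 3, and 1 to 3 with each library left out. In combined against control 2 calls became 6 with the term, 5 with only the groups compared, 1 under median ratio scaling or robust variances, 0 with only the libraries numbered 2 and 3, and 1 to 5 with each library left out. In combined against Zmiz1-titled 1 call became 2 with the term. In Zmiz1-titled against Notch1-titled 3 calls became 1 with only the groups compared or only the libraries numbered 2 and 3, and 1 to 3 with each library left out. The averaged Notch1 effect had 3 calls, and 5 with the term. The averaged Zmiz1 effect had 1 call (Senp6), 2 with the term, 0 under quantile normalization or with only the libraries numbered 2 and 3, and 0 to 2 with each library left out. The partner list had 5 calls, 8 with the term, 2 with only the libraries numbered 2 and 3, and 3 to 6 with each library left out. The term raised the share of all genes called from 2.11% to 4.02% in Zmiz1-titled against control and from 5.49% to 11.2% in Notch1-titled against control. It went from 6.46% to 12.2% in combined against control and from 3.86% to 7.28% in combined against Zmiz1-titled. In the averaged effects it went from 12.8% to 21.6% for Notch1 and from 4.35% to 8.63% for Zmiz1. The counts that rose with the term thus did so beside a rise over all genes. For the partner list the matching share with the term was not taken.

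The replicate numbers were not taken as pairing the libraries across groups, since the labels do not say so and not every same-numbered pair correlated above 0.1. The 18 same-numbered pairs had correlations of their deviations from -0.176 to 0.267, 6 of them above 0.1, and 9 of 12 libraries correlated best with their own number. Of the 6 pairs numbered 1, 4 were above 0.1, and the lowest, control with Notch1-titled, was at -0.044. What these libraries share was not tested. Fitted as a replicate block, the numbers left the counts of members called as they were, except 3 in place of 2 in combined against control and 4 in place of 3 in the averaged Notch1 effect. They moved the SUMO pathway counts to 1 in Zmiz1-titled against control, 4 in Notch1-titled against control and 2 in combined against Zmiz1-titled. Those in combined against control and in the averaged Notch1 effect moved to 5 and 6. The share of all genes called with the replicate block was not taken, so these counts cannot be set beside it. Fitting only the groups compared gave no value for the interaction, the averaged effects or the partner list. The Zmiz1 share and the Sae1 to Uba2 ratio moved by less than their spread. The depth is unknown, so no counting interval is given for Zmiz1 at about 0.2 FPKM.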
